A study of Caenorhabditis elegans with 2 samples.

Results

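Homeobox genes of the nematode Caenorhabditis elegans were examined as places where chromatin was precipitated with CEH-19, itself a homeodomain protein. They were taken as the protein-coding genes whose name starts with ceh-, 63 in all, and 29 further homeobox genes listed by name, so 92 of the 19973 nuclear protein-coding genes of the Ensembl annotation. The measurements are ChIP-seq peak lists from a single group of worms, late embryos of both sexes aged 5 hours and synchronised by bleaching eggs. It has 2 biological replicates, numbered 3 and 2 in the labels. All worms were of strain OP739, which has the unc-119(tm4063) allele and the integrated transgene wgIs739, a construct with ceh-19 joined to TY1, EGFP and 3xFLAG and a functional unc-119. An antibody against GFP was used on whole animals, so a region bound in a few neurons is diluted by all other cells. Both replicates come from that strain. A precipitation from worms lacking the tag is not analysed here, and whether a region depends on CEH-19 was not tested.

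Homeobox genes encode transcription factors that hold a homeodomain, a helical fold that reads short DNA words, often with a TAAT core. Hox genes pattern the body along its length, while LIM, POU, paired-like, ONECUT and NK-like genes are known as selectors of cell identity, in worms above all of single neuron classes. CEH-19 is a BarH-type member known from the MC motor neurons of the pharynx. Homeodomain factors commonly regulate each other's genes.

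For each gene, a region was counted when its summit lay within 2 kb of the 5′ end or inside the gene. The authors' list after their irreproducible discovery rate (IDR) threshold, called reproducible here, holds 1112 peaks, of which 1091 are nuclear. The list called on both libraries together, called pooled, holds 29977 nuclear regions, many of them background, and the lists of replicates 3 and 2 hold 29510 and 29985. The reproducible peaks are the 1112 strongest pooled regions, so the label marks a cutoff in pooled value and not alike values in the replicates at each peak. Ranks run from the strongest nuclear region of a list downward. A pooled region among the 5000 strongest was called strong, which corresponds to a signal value of at least 63.3, and the weakest reproducible nuclear peak had 112.9. The lists hold no read depths, and only the pair of replicates shows how precise a value is.

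The share of homeobox genes with a reproducible peak was near that of all genes. A reproducible peak lay in the window of 5 homeobox genes (5.43%, exact 95% interval 1.79 to 12.2%), ceh-38, ceh-33, ceh-2, ceh-39 and zag-1, beside 5.92% of all nuclear protein-coding genes. A strong pooled region lay at 25 (27.2%, 18.4 to 37.4%), beside 21.1% of all genes. Any pooled region, background included, lay at 75 (81.5%, 72.1 to 88.9%), beside 67.4% of all genes. Homeobox genes are longer, with a median window of 5342 bp against 4027 bp for all genes, and a longer window holds more summits. Per 100 kb of window there were 0.871 reproducible peaks at homeobox genes (exact Poisson 95% interval 0.283 to 2.03) and 1.08 at all genes. For strong regions the densities were 4.88 (3.24 to 7.05) and 5.02. For all pooled regions they were 35.4 (30.7 to 40.6) and 30.7. These intervals cover counting error only. The Poisson intervals treat summits as independent, although some pooled regions overlap each other, as at zag-1 and ceh-58.

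**Figure D1:**
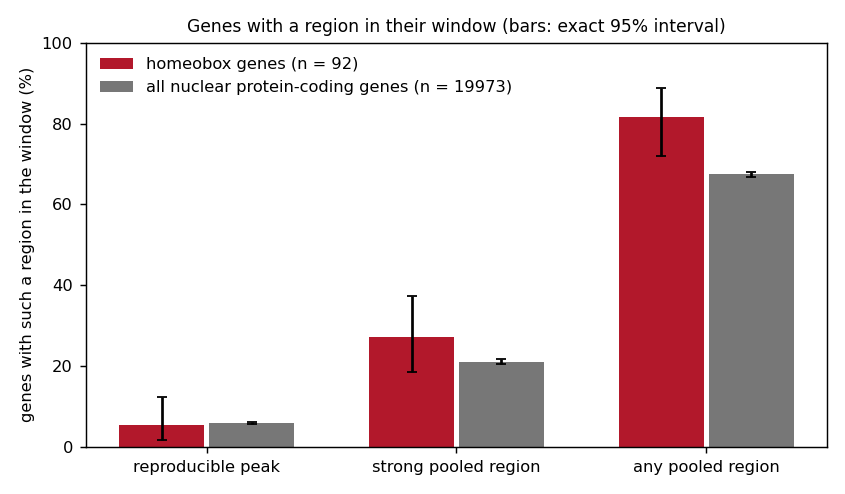
Percent of genes with a reproducible peak, a strong pooled region or any pooled region in their window, for the 92 homeobox genes (red) and all 19973 nuclear protein-coding genes (grey), with exact 95% binomial intervals. The reproducible shares are 5.43% and 5.92%, the strong shares 27.2% and 21.1%, and the shares with any pooled region 81.5% and 67.4%. Homeobox windows are longer, with a median of 5342 bp against 4027 bp, and no test between the sets was made.

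The strongest peak of the family lay at ceh-38, a ONECUT gene. Members of this class have a CUT domain beside the homeodomain and are known in worms for broad neuronal gene expression. The peak, at chrII:6951366-6951801 (ce11), had its summit 58 bp after the 5′ end, in an annotated UTR. Its signal value was 99.1 in replicate 3, 63.4 in replicate 2 and 160.7 in the pooled list, rank 470. It was among the strongest regions in both replicates, at rank 467 in replicate 3 and rank 605 in replicate 2. A further ONECUT gene, ceh-39, known also as an X-linked signal of sex determination, had its peak at chrX:1856148-1856583, with the summit at −194 bp from the 5′ end (negative distances are upstream). Here the signal values were 56.1 in replicate 3 and 66.0 in replicate 2, with a pooled value of 118.9. It was the only reproducible homeobox peak with the higher value in replicate 2, at rank 2023 in replicate 3 and rank 535 in replicate 2.

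Further reproducible peaks lay at ceh-2 and zag-1. The ems-type gene ceh-2 is known from pharyngeal neurons, and its peak at chrI:6050977-6051412 had a summit at −744 bp and within 200 bp of a tRNA gene. Its signal values were 58.8 in replicate 3 and 52.9 in replicate 2, with a pooled value of 119.2. A tRNA gene also lay that close to a weaker pooled region 310 bp inside ceh-43, and to none of the other regions at homeobox genes. Whether the ceh-2 peak belongs to ceh-2 or to the tRNA gene cannot be told apart. In zag-1, a zinc finger homeobox gene of the ZEB family known for neuron differentiation, the reproducible peak lay in an intron 2475 bp after the 5′ end, at chrIV:3858100-3858535. Replicate 3 gave 77.6 (rank 860) and replicate 2 gave 30.7 (rank 6042), so its value was mainly that of replicate 3. A further zag-1 intron region at 571 bp was more even, with 38.02 in replicate 3 and 35.03 in replicate 2, and it was the only other strong region at that gene. The window of zag-1, a gene of 5727 bp, held 6 pooled regions in all.

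The peak assigned to ceh-33 lies between a pair of genes of the sine oculis class, named after its Drosophila member. It spans chrV:5322871-5323306, and its summit is 1577 bp from the 5′ end of ceh-33 and 105 bp beyond its 3′ end. The next gene on that side, ceh-34, is a known selector of pharyngeal neurons. Both genes are on the minus strand with 0 protein-coding genes between them, so the same summit lies at −3512 bp from the 5′ end of ceh-34, outside its 2 kb window. Its replicate 3 signal value was 90.1 and its replicate 2 value 61.3, while the pooled 149.8 had rank 569. The ranks were alike in replicate 3 (607) and replicate 2 (654).

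Sequences at the summits are shown for the strongest regions of the family because they let the words beneath the peaks be read directly. They give 50 bases either side of the summit on the plus strand of ce11, read from the RefSeq assembly of the same build, for 3 of the reproducible peaks and 4 of the next strongest regions. Capitals mark GAGAG on either strand (printed as CTCTC where it lies on the minus strand). The homeodomain words TAATTG and TAATTA would be capitals too.
ceh-33, chrV:5323039-5323139: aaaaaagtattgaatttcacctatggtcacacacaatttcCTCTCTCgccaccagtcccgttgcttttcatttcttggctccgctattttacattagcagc
ceh-39, chrX:1856316-1856416: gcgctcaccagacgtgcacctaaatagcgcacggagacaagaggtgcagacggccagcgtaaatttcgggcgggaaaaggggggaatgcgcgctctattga
zag-1, chrIV:3858268-3858368: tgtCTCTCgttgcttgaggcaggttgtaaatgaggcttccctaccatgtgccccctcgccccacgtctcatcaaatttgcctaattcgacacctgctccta
ttx-1, chrV:20061724-20061824: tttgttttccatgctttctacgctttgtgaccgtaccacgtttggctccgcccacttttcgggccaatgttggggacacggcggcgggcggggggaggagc
ceh-74, chrV:14177802-14177902: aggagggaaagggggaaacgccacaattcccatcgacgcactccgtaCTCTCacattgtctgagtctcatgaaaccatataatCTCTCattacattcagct
ceh-58, chrII:10370976-10371076: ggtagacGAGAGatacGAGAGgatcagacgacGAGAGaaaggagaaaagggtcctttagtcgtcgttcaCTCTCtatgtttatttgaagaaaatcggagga
vab-3, chrX:10515028-10515128: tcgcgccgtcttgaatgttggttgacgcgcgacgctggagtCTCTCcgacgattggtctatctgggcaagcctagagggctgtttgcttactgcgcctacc
None of the 7 windows holds TAATTG or TAATTA, and 5 hold GAGAG on either strand. The ceh-58 window has 4 copies.

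Over the whole family, the homeodomain word was not more frequent at summits than 300 bp away. Of the 203 pooled regions in homeobox gene windows, 18 held TAATTG or TAATTA on either strand in the 50 bp on each side of the summit (8.87%, exact 95% interval 5.34 to 13.7%), and 32 held it in an equal window 300 bp away (15.8%). Over all 29977 pooled regions the shares were 9.38% at summits and 11.9% at flanks. Of the 28 strong regions at homeobox genes, 0 held the word at the summit, which allows a share of up to 10.7% by the limit of 3 counts and 12.3% by the exact 95% interval, against 6.78% of all strong regions. Within 100 bp, 4 of the 28 held it (14.3%), the same share as in all strong regions (14.3%). GAGAG went the other way. It lay at 17 of the 28 strong summits (60.7%, exact 95% interval 40.6 to 78.5%) and 4 flanks, against 34.8% of summits and 15.7% of flanks over all 5000 strong regions. Among the members with it were ceh-33, ceh-2, ceh-14, nob-1, unc-30, unc-62, vab-3, lim-7 and zag-1. For all 203 regions the GAGAG share was 23.6% at summits and 12.3% at flanks, against 20.9% and 14.1% over all pooled regions. The difference between homeobox genes and other places was not tested.

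In ttx-1, ceh-34 and ceh-43 the replicates had their strongest regions at different places. The same held at other members, among them zag-1, unc-62 and lin-39. In zag-1, the strongest of replicate 3 had 77.6 at 2479 bp and that of replicate 2 had 35.03 at 517 bp. The Otx-type gene ttx-1, known for the identity of the thermosensory AFD neurons, had a region of 76.0 in an intron 2402 bp after the 5′ end in replicate 3, at rank 905. The nearest region of replicate 2 there, 2543 bp from the 5′ end, had 21.4. The strongest region of replicate 2 in ttx-1 lay at 5935 bp with 48.9. In ceh-34, replicate 3 had 66.0 at 276 bp and replicate 2 had 60.7 at −380 bp, so the summits lay on opposite sides of the start. The pooled list had a value of 62.5 at the first of these places and 47.5 at the second. In ceh-43, a Distal-less homologue, replicate 3 had its strongest region, 40.2, at 2270 bp, and replicate 2 had 52.9 at 450 bp, at rank 1006. Each had a weaker region near the other's, 28.2 at 240 bp in replicate 3 and 30.3 at 2139 bp in replicate 2.

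**Figure D2:**
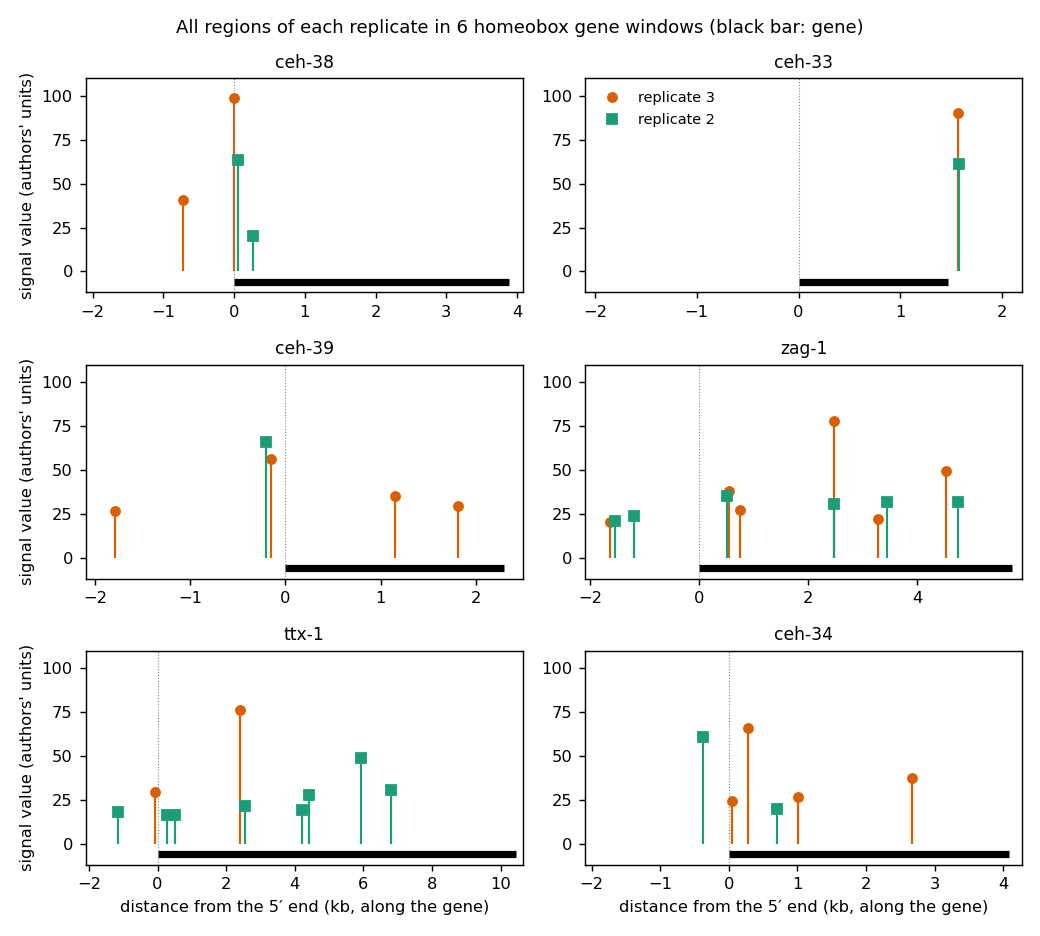
Signal value of every region of replicate 3 (orange circles) and replicate 2 (green squares) against its summit's distance from the 5′ end in kb, for 6 homeobox genes, with the gene drawn as a black bar. The strongest summits of the replicates lie within 100 bp of each other at ceh-38, ceh-33 and ceh-39. In zag-1, ttx-1 and ceh-34 the strongest summits of the replicates lie apart.

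As many of the strongest regions of a single replicate as there are reproducible peaks gave a similar count and partly other genes. In replicate 3, 4 homeobox genes (4.35%) had such a region, ceh-38, ceh-33, zag-1 and ttx-1, beside 5.89% of all genes. In replicate 2, 6 (6.52%) had one, ceh-38, ceh-33, ceh-39, ceh-34, ceh-2 and ceh-43, beside 5.74% of all genes. Shared by both replicates were 2 (2.17%), ceh-38 and ceh-33, beside 3.87% of all genes.

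By class, strong regions were spread over most of the family, and 27 genes were left without a class. Beside every class count stands the share of all genes with a strong region, 21.1%. Gene length differs too, and a longer gene holds more summits. The median was 4964 bp for LIM and 5102 bp for TALE genes, against 2027 bp for all genes. LIM genes, known for neuron identity, had a strong region at 4 of 7. These were ceh-14, lim-7, lin-11 and lim-4. The ceh-14 region lay in an annotated UTR near the end of the gene, 4680 bp after the 5′ end of a gene of 4964 bp, with 58.0 in replicate 3, 43.4 in replicate 2 and a pooled value of 104.8. It ranked 1339 in the pooled list, and its ranks in replicate 3 (1841) and replicate 2 (1901) were close. The nearest protein-coding 5′ end was that of F46C8.3. The lim-7 region, 5910 bp after the 5′ end in an intron, had 44.5 in replicate 3 and 28.6 in replicate 2. In lin-11, needed for vulval and neuronal development, a coding exon region at 94 bp had 52.3 in replicate 3, and the nearest region of replicate 2, at −13 bp and just over 100 bp from the pooled summit, had 18.4. For lim-4, known from olfactory AWB neurons, the region at −1146 bp had 41.9 in replicate 3 and 25.4 in replicate 2. The touch neuron gene mec-3 had no pooled region.

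TALE genes, cofactors of Hox proteins, had a strong region at 2 of 4. The Meis homologue unc-62 had 10 pooled regions, the highest number of the family, over a gene of 13989 bp. Its strongest, in an intron at 1861 bp, had 61.8 in replicate 3, 32.6 in replicate 2 and a pooled value of 91.7. Its second, in an annotated UTR at 10598 bp, had 46.1 in replicate 3 and 26.99 in replicate 2. That second region lay closer to the 5′ end of T28F12.1, at −4974 bp. The Pbx homologue ceh-20 had a region with 54.7 in replicate 3 and 17.4 in replicate 2, at 1694 bp, closer to the 5′ end of its neighbour F31E3.6, at −503 bp. The TALE gene ceh-40 had its strongest pooled region at −72 bp (57.0, rank 6782), with 49.6 in replicate 3 and no match in replicate 2.

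Paired and paired-like genes had a strong region at 4 of 13, ttx-1, vab-3, alr-1 and unc-30. The Pax6 homologue vab-3 is 19691 bp long and had 9 pooled regions. The strongest, 15188 bp after the 5′ end, had 42.97 in replicate 3 and 32.6 in replicate 2, with a pooled value of 84.7. It lay closer to the 5′ end of F14F3.4, at 6335 bp. The region of alr-1, an aristaless homologue, had 39.9 in replicate 2 at −1227 bp. The nearest region of replicate 3, at −1118 bp, had 53.9 and missed the 100 bp limit for a match narrowly. In unc-30, the selector of GABAergic motor neurons, the summit lay 1 bp upstream of the 5′ end, with 57.6 in replicate 3 and no match in replicate 2.

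Of 18 NK-like genes, 3 had a strong region, ceh-2, ceh-43 and ceh-1, whose region 1115 bp from the 5′ end, beyond the gene, had 39.3 in replicate 3 and 24.5 in replicate 2. Among the sine oculis-class genes it was 1 of 4 (ceh-33), and ceh-34 was next at rank 5197. The CUT and ONECUT class had 2 of 6 (ceh-38 and ceh-39). Of 3 POU genes, 1 had a strong region, ceh-18, with 36.6 in replicate 3 and 23.5 in replicate 2. None of the 3 Hox-related genes pal-1, vab-7 and ceh-12 had one, the highest being vab-7 at rank 6958. Among genes without a class, 5 of 27 had one. These were ceh-74 at −227 bp (pooled value 93.4), ceh-58 at −1429 bp (88.6), ceh-62 at −1232 bp (84.2), ceh-86 at −671 bp (77.0) and ceh-100 at −682 bp (71.7). For ceh-100 the summit lay 24 bp upstream of another gene, lips-15, and for ceh-74 it lay inside another gene, cest-2.3. With so few members, the classes are not ranked against each other.

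**Figure D3:**
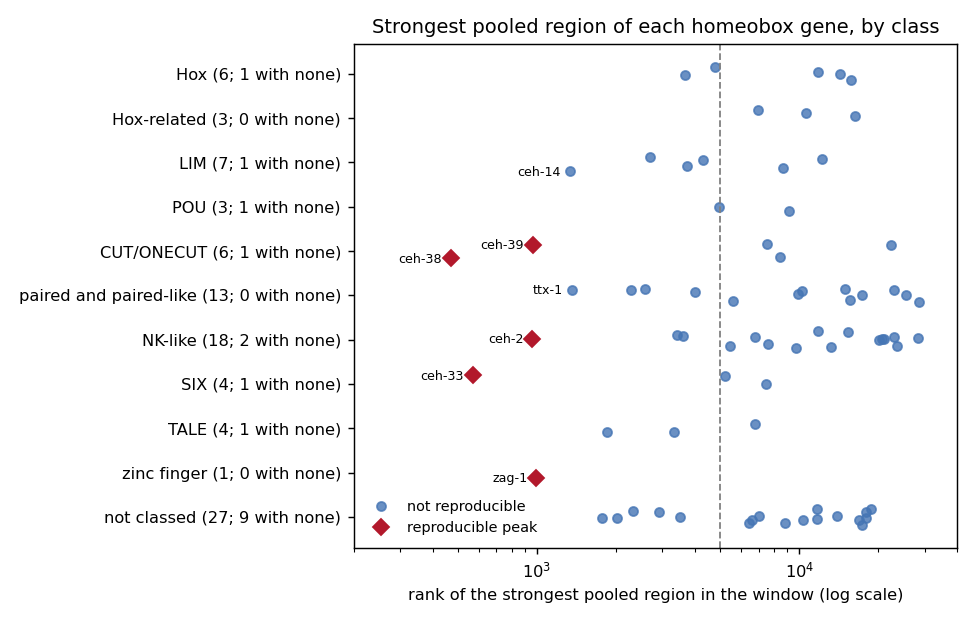
Pooled rank of the strongest region in each homeobox gene's window (log scale, strongest to the left) by class, with the number of genes and of genes without a pooled region beside each name. Red diamonds are the 5 genes with a reproducible peak, and the dashed line marks rank 5000, which 25 genes pass.

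Hox genes had no reproducible peak, and 2 of 6 had a strong region. The posterior gene nob-1 had one at −849 bp with 38.5 in replicate 3, 35.4 in replicate 2 and a pooled value of 70.7 (rank 3670). The mab-5 region lay in a coding exon at 116 bp, with 41.004 in replicate 3, 24.7 in replicate 2 and a pooled value of 64.4. The strongest regions of the others were weak and found in at most 1 replicate. At php-3, the paralogue next to nob-1, it had a pooled value of 46.5 at −196 bp, with 32.5 in replicate 3 only. For lin-39, which acts in the mid-body, it had 43.01, with 41.9 in replicate 3 only. The anterior gene ceh-13 had 41.2, matched in neither replicate. The gene egl-5 had no pooled region, although replicate 2 listed 3, the strongest at 80 bp with 24.7. The median signal value over all pooled nuclear regions was 42.2, so lin-39 and ceh-13 lay near the middle of the list.

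The BarH-type genes ceh-30 and ceh-31, the relatives of ceh-19 and neighbours on the X chromosome, had 3 pooled regions each. The strongest at ceh-30 lay at −143 bp with a pooled value of 61.5 (rank 5458), and replicate 3 alone had it, with 47.6. At ceh-31 it lay at 1014 bp with 57.1 (rank 6758), and replicate 2 alone had it, with 34.9. A summit at the 5′ end of ceh-31 had 38.3 in replicate 3. None of the 6 regions was found in both replicates.

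At ceh-19 itself, all lists were empty. The gene (chrIV:7953500-7955949) lies in a stretch without any summit from 7926542 to 7982332 in the pooled list, 55.8 kb. The same stretch was empty for 50.5 kb in replicate 3 and 58.2 kb in replicate 2. The median distance between neighbouring summits was 1.79 kb in the pooled list, and this gap was the 37th longest of 29971, with 15 protein-coding genes inside it. In replicate 3 it was the 31st longest and in replicate 2 the 20th. The worms carry additional ceh-19 sequence in the transgene, and the control library of the peak calls is not analysed here, so added copies, the removal of regions during peak calling and a lack of signal cannot be told apart. The lists therefore give no value for CEH-19 at its own gene.

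**Figure D4:**
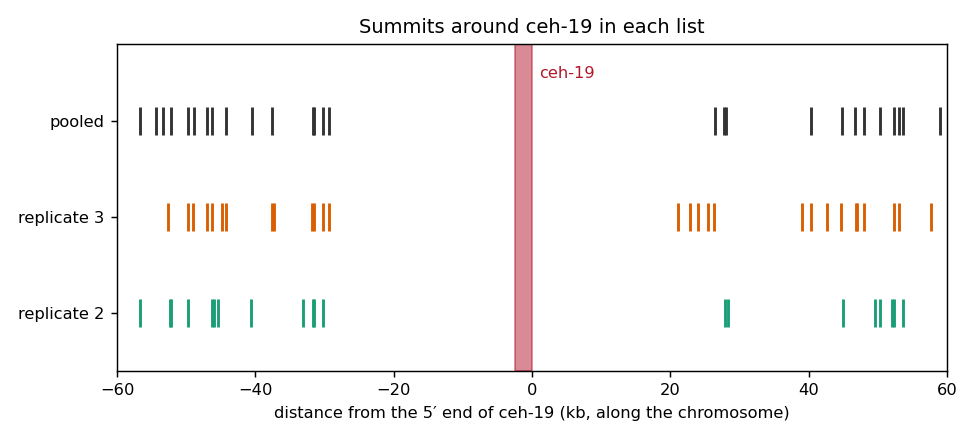
Summits of the pooled list, replicate 3 and replicate 2 as vertical ticks, against the distance from the 5′ end of ceh-19 in kb along the chromosome, with the gene shaded red. All 3 lists are empty over the gene and for at least 21.1 kb on either side of its 5′ end.

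Strong regions were found in both replicates more often than pooled regions as a whole. The pooled values that define strong come from the same 2 libraries, so this follows in part from the choice. Of the 203 distinct pooled regions in homeobox gene windows, 123 had a summit within 100 bp in replicate 3, 91 in replicate 2, and 46 in both (22.7%, exact 95% interval 17.1 to 29.0%), against 25.04% of all pooled regions. Neither replicate had a match at 35. Some of the 203 regions overlap each other, which the intervals do not take into account. Among the 28 strong ones, 19 were found in both (67.9%, 47.6 to 84.1%), against 73.2% of all strong regions. At least 1 region found in both replicates lay at 32 homeobox genes (34.8%), beside 29.6% of all genes. Over the 46 regions, the log2 ratio of replicate 3 to replicate 2 had a median of 0.45 and an SD of 0.47, a factor of 1.39, and 36 were higher in replicate 3. Over all 7506 such pooled regions the median was 0.38 and the SD 0.58, and 5621 were higher in replicate 3. Spearman's rho between the replicates was 0.538 and Pearson's r 0.705 over the 46 regions, which share their libraries and were selected for being listed in each. The ceh-39 value, with a log2 ratio of −0.24, and the zag-1 value, with 1.34, lay on opposite sides of that median. Each was more than 1 SD from it.

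**Figure D5:**
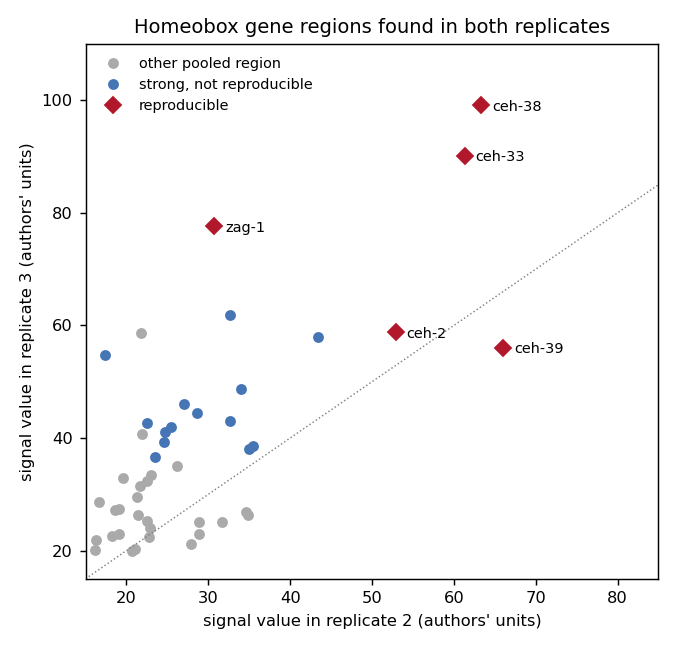
Signal value in replicate 3 against replicate 2 for the 46 homeobox gene regions found in both, as diamonds for the 5 reproducible peaks, blue circles for other strong regions and grey circles for the rest; the dotted line marks equal values. Most points, 36 of 46, lie above the line, and ceh-39 is the reproducible peak below it. Over all pooled regions found in both, 5621 of 7506 were higher in replicate 3.

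Counted by gene, a region among the 5000 strongest regions lay at 29 homeobox genes (31.5%) in replicate 3, beside 21.6% of all genes. In replicate 2 it lay at 20 (21.7%), beside 21.1%. At 15 genes (16.3%) both replicates had one, beside 12.5% of all genes. At 7 of these the summits were within 100 bp of each other, beside 8.76% of all genes, where the homeobox share was 7.61%. These 7 were ceh-38, ceh-33, ceh-39, ceh-2, ceh-62, unc-62 and vab-3. Thus ceh-39 and ceh-2 had summits at the same place in both replicates without being among the strongest in replicate 3.

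Positions within the genes were described last. Counting a region once for each gene whose window holds it, 205 pairs were found, since 2 regions lay in the windows of 2 homeobox genes. Of the 205, 74 lay in introns (36.1%), 67 upstream (32.7%), 40 in coding exons (19.5%), 17 in UTRs (8.29%) and 7 beyond the gene (3.41%). For all genes the shares were 29.5% in introns, 37.8% upstream, 20.9% in coding exons, 5.27% in UTRs and 6.36% beyond the gene. Of the 28 strong pairs, 11 lay upstream (39.3%), 9 in introns (32.1%), 4 in UTRs (14.3%), 2 in coding exons (7.14%) and 2 beyond the gene (7.14%). For all genes these were 51.4% upstream, 28.3% in introns, 4.40% in UTRs, 9.44% in coding exons and 6.42% beyond the gene. The homeobox gene had the nearest protein-coding 5′ end in 162 of the 205 pairs and in 23 of the 28 strong ones. In 15 pairs the summit lay inside another protein-coding gene. No value over all genes stands beside these last counts, so whether they are usual was not tested.

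Other transcription factor genes give a scale for these counts. The nhr- and hlh- genes were chosen by name only, and 9 further homeobox genes came from a list. That list was made with earlier results of these data known. Nuclear hormone receptor genes named nhr-, 269 in all, had a reproducible peak at 11 (4.09%) and a strong region at 38 (14.1%, exact 95% interval 10.2 to 18.9%). Of 25 basic helix-loop-helix genes named hlh-, 0 had a reproducible peak and 5 a strong region (20%, 6.83 to 40.7%). Homeobox genes with other names, a list of 9, had a reproducible peak at 0 and a strong region at 5. Those with one were zfh-2, duxl-1, dve-1, pros-1 and hmbx-1. Per 100 kb of window the order differed, with 4.88 strong regions at the 92 homeobox genes (exact Poisson 95% interval 3.24 to 7.05), 4.09 at nhr- genes (3.09 to 5.31), 9.60 at hlh- genes (4.96 to 16.8) and 17.4 at the 9 others (9.52 to 29.2). The zinc finger homeobox gene zfh-2, 31.4 kb long, held 8 strong regions, the strongest with 52.2 in replicate 3 and 45.5 in replicate 2. At dve-1, a homologue of Drosophila defective proventriculus, the strongest had 48.2 in replicate 3 and 21.6 in replicate 2.

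No region in any of the 4 lists lay at 8 homeobox genes. Besides ceh-19 they were unc-39 of the sine oculis class and the unclassed genes ceh-7, ceh-53, ceh-63, ceh-76, ceh-79 and ceh-84, with lengths from 515 bp at ceh-7 to 5707 bp at ceh-53. A further 9 had no pooled region but at least 1 in a replicate list. Having no pooled region was not particular to these genes, since 81.5% of homeobox genes and 67.4% of all genes had one. The share of all genes without a region in any list is not given here.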

How the data were processed

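Peak lists of CEH-19 ChIP-seq from 2 replicates were analysed. Sonication gave fragments of 200 to 800 bp, per the labels. Per the text files deposited with the lists, the regions are on ce11, peaks and background of a replicate come from its library and 1 control file, both libraries enter the pooled list, and the IDR list derives from these. Not given in the sources used here are the aligner, the peak caller, read filters and the IDR threshold. Signal values are the authors' deposited ones, with no stated normalization; regions were ranked by them in each list, and replicates compared. The deposited −log10 q-value was not used.

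The 1112 IDR peaks were checked to be the 1112 strongest pooled regions. Genes came from Ensembl release 115 (WBcel235, the same build), sequence from RefSeq. Summits of different lists were matched within 100 bp. Peaks of the mitochondrial genome were left out of gene counts. Of the sequence windows, those on chromosome I and 3 that overlap annotated UTRs (ceh-38, ceh-14 and unc-62) were not printed. The members, classes and lists were chosen with earlier results of these data known. Named were genes with a reproducible peak, the 25 with the strongest pooled region, the strongest of each class, ceh-19, the Hox and BarH genes, and those among the strongest of a replicate. Chosen after their values were known were the further genes without a region, those outside the 92, neighbours, ceh-40, ceh-12, pal-1, unc-39 and mec-3. No test between gene sets was made, since the 2 libraries form 1 group, and intervals describe counting error. The counting was tested on simulated data. Alternatives changed the window, the cutoff, the matching distance and the replicate used. Python 3.11.15, numpy 2.4.6, pandas 2.3.3, scipy 1.17.1 and matplotlib 3.10.9 were used.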

Additional observations from a re-analysis of the deposited data

How the results depend on the processing

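Of the 50 alternatives, 33 left the value within 1.5 times the count, the interval or 1 SD. This judges the homeobox value only, not its distance from all genes. Counting a region only for the gene with the nearest 5′ end left 5 of the 92 homeobox genes with a reproducible peak. A strong region then lay at 21 and any pooled region at 71. The shares of all genes fell to 3.86%, 14.6% and 54.6%, so the comparison with all genes changed at this setting. Of the 92 homeobox genes, 3 had a reproducible peak with 500 bp in place of 2 kb, 10 with 5 kb and 2 inside the gene only. With the peaks above the median signal value it was 1 of the 92. All genes had 3.65%, 10.3%, 1.66% and 3.29% at these settings. The strong count out of 92 was 15 with 500 bp, 12 inside the gene only, 12 with 2500 and 43 with 10000 strongest regions. All genes had 14.3%, 8.37%, 12.2% and 35.4% there. Without replicate 2 or 3, the strong count ran from 20 to 29 and the reproducible count from 4 to 6. The count with any region ran from 71 to 78, and regions per 100 kb from 33.3 to 35.0. Regions found in both replicates were 13.8% within 50 bp, 36.5% within 200 bp and 67.9% among the 5000 strongest. TAATTG or TAATTA lay at 1.97% of summits within 25 bp, 22.2% within 100 bp and 0 of the 28 strong ones. Over all regions the shares were 4.65%, 18.7% and 6.78%, so which side was higher depended on the setting. GAGAG lay at 14.8%, 37.9% and 60.7%, against 11.6%, 34.9% and 34.8% over all regions. Wider windows hold more words and summits by construction. No paired analysis was possible because there is 1 group. Depth is unknown, so weak regions cannot be told from background, and 2 replicates do not show how peaks vary over further cultures.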
